A study of Homo sapiens with 4 samples.

Results

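Genes described in the literature as targets of the microRNA miR-335 in invasion, migration and metastasis were examined in GIST-T1 cells that had received a miR-335 mimic. The 9 genes were SOX4, TNC, PTPRN2, MERTK, ROCK1, LRG1, RASA1, SP1 and DKK1, and every array probe that carried one of these gene names was kept, which gave 12 of the 50599 probes that were not controls (9 of 36337 gene names). In all, 8 of the 12 probes, for 7 of the 9 genes, were well above background in at least 1 group and could be tested. The probes of LRG1 and DKK1, the second probe of PTPRN2 and the second probe of MERTK were not well above background on any array. None of the 8 tested probes passed the test across all probes. The signals of SOX4 and of both ROCK1 probes were between 81.0% and 83.6% of the control with the mimic, and that of TNC was 121% of the control.

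GIST-T1 is an established human line grown from a gastrointestinal stromal tumor (GIST), a mesenchymal tumor of the gut wall. The cells were electroporated with 100 pmol of a mirVana miR-335 mimic (2 arrays) or of the mirVana miRNA mimic Negative Control #1 (2 arrays), and total RNA was taken 48 h later. From each sample, 100 ng of RNA was labeled with a single dye for an Agilent array of human transcripts, whose probes are 60 bases long. The comparison asks which transcripts differ when the microRNA is supplied to these cells. All samples are 1 cell line, there was no array of cells without transfection, and the labels do not say which strand of miR-335 the mimic carried or whether the 2 samples of a group were separate cultures, so that p-values measure only the spread between these samples. The title and the transfection label of both mimic samples name miR-335, whereas a second line of their descriptions names miR-34a. The miR-335 label was used, and the transfected RNA itself was not measured on these arrays.

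A microRNA is a small RNA that guides a silencing complex to messenger RNAs, mostly through pairing of its seed, the bases near its 5′ end, with the 3′ untranslated region of the target. Silenced messengers are translated less and are often degraded, and arrays see only the latter. miR-335 lies in an intron of the imprinted gene MEST and is known as a suppressor of metastasis in breast cancer, with SOX4, TNC, PTPRN2 and MERTK among the genes it is known to restrain there.

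The mature strands of miR-335 are shown because the seed sets which transcripts can pair with the mimic. Both are given as in RefSeq (build GRCh38.p14), 5′ to 3′, with the seed in capitals (bases 2 to 8). The 5p strand lies at chr7:130496126-130496148 and the 3p strand at chr7:130496162-130496183, both on the plus strand.
hsa-miR-335-5p: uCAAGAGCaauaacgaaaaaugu
hsa-miR-335-3p: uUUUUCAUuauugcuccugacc

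The 60-base sequences of the 12 probes were searched, on the transcript strand, for the match to each seed. The match to the 5p seed, GCTCTTG, was in 1 of the 12 probes, that of RASA1, and in 0.437% of all probes and 0.492% of the tested probes. The match to the 3p seed, ATGAAAA, was in 0 of the 12, against 1.22% of all probes. Probes cover a short stretch of each transcript and the 3′ untranslated regions were not searched, so that the absence of these letters from a probe says nothing about the rest of the transcript. The first 30 bases of the RASA1 probe (hg19 chr5:86686765-86686794, plus strand) are shown with the match in capitals, because it is the only one among the 12.
RASA1 probe, start: atgtctcctttGCTCTTGccaaaaaatagc
The match lies at bases 12 to 18 of the probe (hg19 chr5:86686776-86686782). Pairing with miR-335-5p ran over 9 bases without a gap, from base 2 to base 10 of the microRNA. A match is a description of the letters, and whether it is used as a site was not measured.

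All 4 arrays were on 1 slide and were scanned together, with mimic and control at different positions of the slide, so that position and group cannot be told apart. The arrays each detected between 20386 and 21214 probes, the 75th percentile of the signal lay between 178.8 and 189.7 intensity units, and 0 spots were saturated. The markers of GIST and of interstitial cells of Cajal were detected on all 4 arrays for 6 of 6 genes (KIT, ANO1, ETV1, PDGFRA, PRKCQ and CD34). Of the markers of other cells, those detected on all 4 arrays were 2 of 4 for smooth muscle (DES and SMTN), 1 of 4 for epithelium (EPCAM) and 0 of 4 for endothelium. Of the leukocyte markers, CD14 was detected on all 4 arrays, and PTPRC and CD3E were not detected. Levels below are log2 intensities minus the 75th percentile of the same array, so that 0 is the level of that percentile, and a change is the mean of the mimic arrays minus the mean of the control arrays. The 7 external spike-in probes were higher by a median of 0.19 (0.12 to 0.26) on the mimic arrays on this scale, and scaling to them took the median change over all tested probes from -0.01 to -0.20. All changes below are relative to the 75th percentile, and the part of total RNA amount in them was not tested. In bulk samples fewer cells with a transcript and less of it per cell cannot be told apart.

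**Figure D1:**
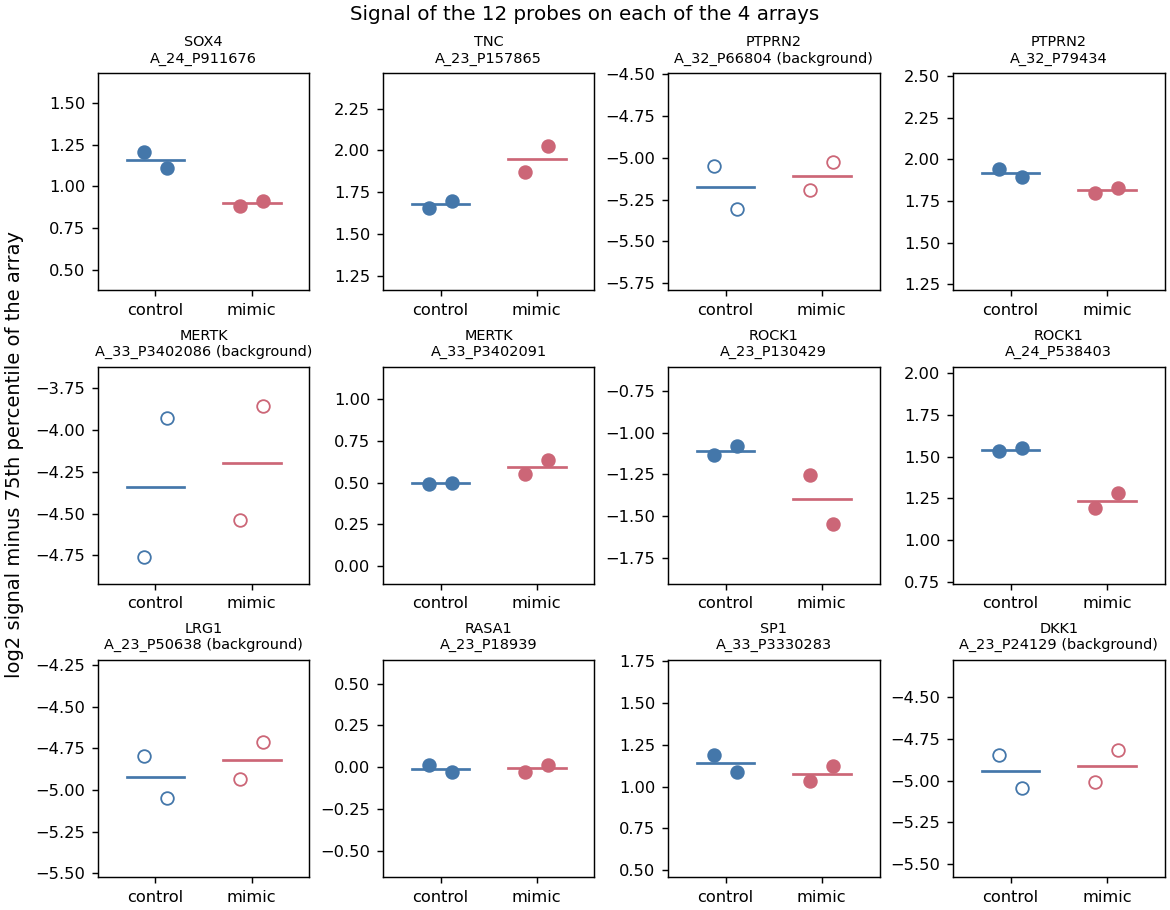
Level of each of the 12 probes on each array (log2 intensity minus the 75th percentile of the array, vertical axis, every panel spanning the same range) in control (blue) and mimic (red) samples; points are arrays, lines are group means, and open points mark the 4 probes that were not well above background on any array. The groups are apart for SOX4, TNC, the brighter probe of each of PTPRN2 and MERTK and both ROCK1 probes, and overlap for RASA1 and SP1.

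The nuclear members were taken first. SOX4 encodes a transcription factor of the SOXC group, known for its part in progenitor cells and in the epithelial to mesenchymal transition, and is a well known target of miR-335 in metastasis. Its probe (A_24_P911676, hg19 chr6:21598001-21598060, plus strand) gave intensities of 412.5 and 391.4 in the control and 349.4 and 344.6 with the mimic. Both mimic arrays lay below both control arrays. On the normalized scale the level was 1.16 ± 0.07 (SD, n = 2) in the control and 0.90 ± 0.02 (SD, n = 2) with the mimic, a change of -0.26 ± 0.05 (SE; 95% limits -0.41 to -0.11), or 83.6% of the control. This missed the threshold of 0.05 in limma (adjusted p = 0.104). A change below that of SOX4 was seen in 8.72% of all tested probes.

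SP1, a zinc finger factor that binds GC boxes in many promoters, had intensities of 408 and 386.4 in the control and 387.7 and 398.7 with the mimic (A_33_P3330283, hg19 chr12:53810152-53810211, plus strand). The groups overlapped. Its level was 1.14 ± 0.07 in the control and 1.08 ± 0.07 with the mimic (SD, n = 2 each), a change of -0.06 ± 0.06 (SE; 95% limits -0.24 to 0.12; limma adjusted p = 0.575). These limits hold both a small decrease and a small increase, and 1.5-fold in either direction (0.58 on the log2 scale) lies outside them.

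ROCK1 encodes a kinase that drives actomyosin contraction during migration. It had 2 probes, which lie 4840 bases apart on the minus strand of chromosome 18, and both also list the transcript of ROCK1P1, a transcribed pseudogene, so that ROCK1 and ROCK1P1 cannot be told apart on them. The brighter probe (A_24_P538403, hg19 chr18:18530232-18530291) gave 517.4 and 531.6 in the control and 433.5 and 444.4 with the mimic. Its groups did not overlap, and the gap between them was wider than the gap between the arrays of either group. Its level was 1.54 ± 0.01 in the control and 1.24 ± 0.06 with the mimic (SD, n = 2 each), a change of -0.30 ± 0.05 (SE; 95% limits -0.45 to -0.16), or 81.0% of the control. It had the lowest p of the 8 probes, and it too missed the threshold (limma adjusted p = 0.0784).

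The dimmer ROCK1 probe (A_23_P130429, hg19 chr18:18535132-18535191) gave 81.3 and 85.9 in the control and 79.6 and 62.5 with the mimic. The mimic arrays lay below the control arrays but far apart from each other. The change was -0.29 ± 0.12 (SE; 95% limits -0.63 to 0.05; limma adjusted p = 0.240), close to that of the brighter probe with a wider error. It rested on mimic replicate 2, since the change was -0.14 without that array and -0.44 without mimic replicate 1. It was -0.13 with normexp background correction and -0.48 with spike-in scaling.

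RASA1, which encodes a GTPase activating protein that turns RAS off, holds the seed match shown above in its probe (A_23_P18939, hg19 chr5:86686765-86686824, plus strand). Its intensities were 180.7 and 177.6 in the control and 185.9 and 184.5 with the mimic. Scaled to the 75th percentile the groups overlapped, with levels of 0.02 and -0.03 in the control and -0.03 and 0.01 with the mimic. The change was 0.00045 ± 0.04 (SE; 95% limits -0.12 to 0.12; limma adjusted p = 0.995), which is 100.03% of the control with limits of 91.8% and 109%, and it turned to -0.19 (limma adjusted p = 0.0310) with spike-in scaling. Relative to the 75th percentile, a level under 91.8% of the control thus lay outside the limits.

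Of the members at the cell surface and in the matrix, TNC was the one with the highest change. TNC encodes tenascin-C, an extracellular matrix glycoprotein of wound edges and tumor stroma. Its probe (A_23_P157865, hg19 chr9:117783310-117783369, minus strand) gave 562.4 and 590.2 in the control and 693.3 and 746.1 with the mimic. Both mimic arrays lay above both control arrays. Its level was 1.68 ± 0.03 in the control and 1.95 ± 0.11 with the mimic (SD, n = 2 each), a change of 0.27 ± 0.07 (SE; 95% limits 0.07 to 0.48), or 121% of the control. It was 0.085 with spike-in scaling. The difference missed the threshold (limma adjusted p = 0.139), and 91.8% of all tested probes had a lower change.

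MERTK encodes a receptor tyrosine kinase of the TAM group, which drives the uptake of dying cells through the ligands GAS6 and PROS1. Its brighter probe (A_33_P3402091, hg19 chr2:112786885-112786944, plus strand) gave 251.5 and 256.8 in the control and 278 and 284.1 with the mimic. The mimic arrays were the higher ones, by a gap smaller than the difference between the 2 of them. The level was 0.50 ± 0.00 in the control and 0.59 ± 0.06 with the mimic (SD, n = 2 each), a change of 0.10 ± 0.05 (SE; 95% limits -0.04 to 0.23; limma adjusted p = 0.301), which became -0.09 with spike-in scaling. The other MERTK probe (A_33_P3402086, hg19 chr2:112766079-112766138), 20746 bases away and tied to another transcript, gave 6.61 and 11.9 in the control and 8.18 and 12.6 with the mimic. Those intensities were not well above background and no change is given for it.

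PTPRN2 encodes phogrin, a receptor-type phosphatase of dense-core secretory vesicles. Its brighter probe (A_32_P79434, hg19 chr7:157331913-157331972, minus strand) gave 686.8 and 674.9 in the control and 661 and 648.8 with the mimic. The mimic arrays were both lower, by a small margin. The level was 1.92 ± 0.03 in the control and 1.81 ± 0.02 with the mimic (SD, n = 2 each), a change of -0.10 ± 0.04 (SE; 95% limits -0.22 to 0.01; limma adjusted p = 0.235), or 93.1% of the control. Its second probe (A_32_P66804, hg19 chr7:157874004-157874063), 542031 bases away in the same gene, gave between 4.60 and 5.62 on the 4 arrays and was not well above background.

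The secreted members LRG1 and DKK1 gave no level. LRG1 encodes a leucine-rich glycoprotein that modulates TGF-beta signaling, and its probe (A_23_P50638, hg19 chr19:4537456-4537515, minus strand) gave between 5.50 and 6.97. DKK1 encodes a secreted inhibitor of the WNT co-receptors LRP5 and LRP6, and its probe (A_23_P24129, hg19 chr10:54076687-54076746, plus strand) gave between 5.52 and 6.51. Neither was well above background on any array, so a decrease with the mimic could not have been seen for them.

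**Figure D2:**
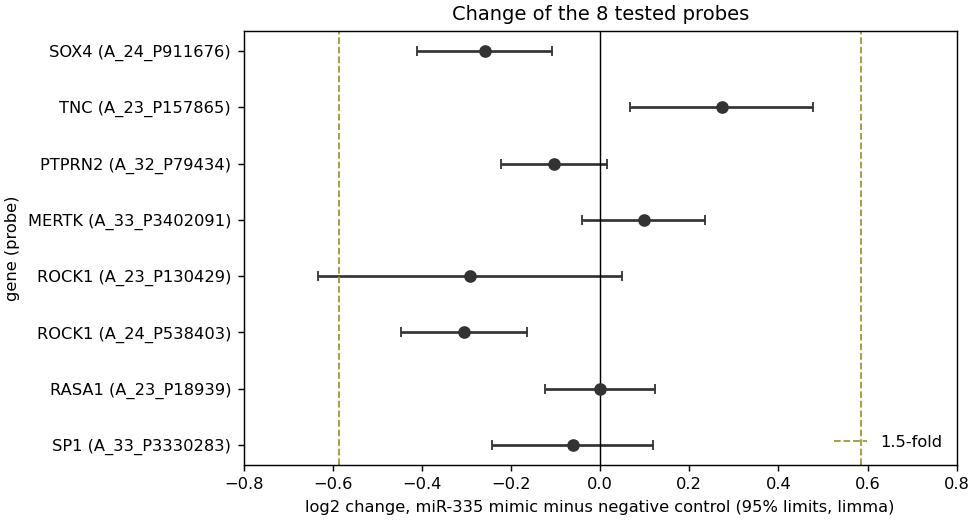
Log2 change (mimic minus negative control, horizontal axis) of the 8 tested probes with 95% limits from limma; dashed lines mark 1.5-fold in each direction. The limits of SOX4 (-0.41 to -0.11) and of the ROCK1 probe A_24_P538403 (-0.45 to -0.16) lie below 0 and those of TNC (0.07 to 0.48) above 0, and the limits of the dimmer ROCK1 probe alone pass a dashed line.

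Over the 8 tested probes, 0 passed an adjusted p of 0.05 in limma, where 2.62% of all tested probes passed (1.15% lower and 1.47% higher with the mimic). At an unadjusted limma p under 0.05 there were 3 of 8, SOX4 and the brighter ROCK1 probe lower and TNC higher, against 25.3% of all tested probes. With the methods' t-test, 2 of 8 passed unadjusted, the same SOX4 and ROCK1 probes, against 20.2% of all tested probes, and after Benjamini-Hochberg adjustment 0 of all 20328 probes passed. No probe was over 1.5-fold lower or over 1.5-fold higher, against 1.47% and 2.43% of all tested probes. The 95% limits left out a 1.5-fold fall for 7 of 8 probes, the dimmer ROCK1 probe being the exception, and a 1.5-fold rise for 8 of 8.

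The groups did not overlap for 6 of the 8 probes, against 59.7% of all tested probes. Both mimic arrays were below both control arrays for 4 of them (32.5% of all tested probes) and above for 2 (27.1%). The median change of the 8 probes was -0.08, and -0.06 with 1 probe per gene, against -0.01 over all 20328 tested probes. The typical size of a change, as the median absolute change over all tested probes, was 0.10. For 2 arrays against 2, the smallest two-sided p of an exact permutation test is 0.333, and the tests therefore rest on the spread that limma pools over probes.

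**Figure D3:**
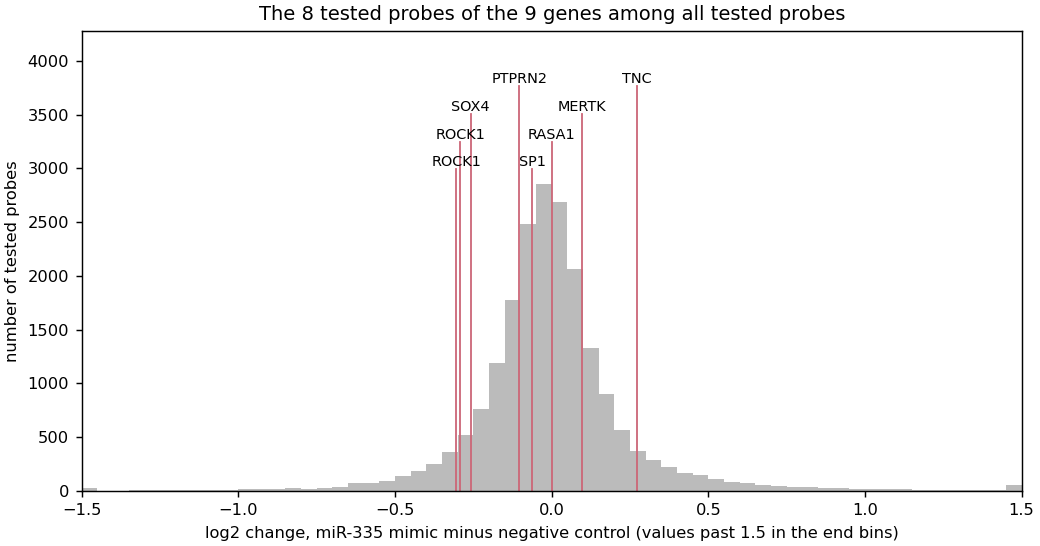
Number of tested probes (vertical axis) by log2 change, mimic minus negative control (horizontal axis, in bins, with values beyond 1.5 in the end bins); lines mark the 8 tested probes of the 9 genes. The probes of ROCK1 (-0.30 and -0.29) and SOX4 (-0.26) stand in the lower flank and TNC (0.27) in the upper flank of the distribution, and the others near its middle.

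Genes that act with the members were examined as 10 lists. The lists were written from general knowledge but with earlier results of these data known, so that counts over them are only a description. They held 83 genes in all, of which 66 had a tested probe (the brightest was used for each gene). In limma 2 of the 66 fell and 0 rose, against 1.34% lower and 1.42% higher (2.76% in either direction) over all 15454 gene names tested. At an unadjusted limma p under 0.05, 15 were lower and 1 was higher, against 13.7% lower and 11.7% higher over all tested probes. The change was negative in 49 and positive in 17, with a median of -0.06, and it was negative in 53.8% of all tested probes. With spike-in scaling 42 of the 66 were called lower, beside the 47.4% of all tested probes called in either direction under it.

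RASA3, a relative of RASA1 that turns off RAS and RAP, was 1 of the 2 genes that fell. Its intensities were 3885 and 4035 in the control and 2514 and 2583 with the mimic (hg19 chr13:114747259-114747318, minus strand). The groups were far apart against the spread within each. RASA3 fell by 0.68 on the log2 scale (SE 0.05, 95% limits -0.83 to -0.54; limma adjusted p = 0.0351), in contrast to the 0.00045 of RASA1, a difference between the genes that was not itself tested. Of the RAS GTPases and their activating proteins, 7 of 10 were tested, 4 with a negative and 3 with a positive change, and the highest was RASA4, which encodes another member of the family, at 0.06 on its brightest probe and between -0.36 and 0.02 on its 3 others. When any 1 array was left out, the change of RASA3 was between -0.73 and -0.64 and its limma adjusted p between 0.146 and 0.189.

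RB1, the retinoblastoma gene that restrains entry into S phase, was the other. It was among 6 further genes described as miR-335 targets, of which 5 were tested and 5 had a negative change. Its intensities were 1757 and 1759 in the control and 1207 and 1187 with the mimic (hg19 chr13:49055845-49055904, plus strand). RB1 fell by 0.60 on the log2 scale (SE 0.04, 95% limits -0.71 to -0.49; limma adjusted p = 0.0348), and the arrays of each group lay close together. Without any 1 array the fall was between -0.62 and -0.59 and its adjusted p between 0.143 and 0.196. The highest of the 5 was BCL2L2, a survival gene of the BCL2 family, at -0.07.

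In the list of ROCK signaling, 13 of 14 genes were tested, 11 with a negative change and none called. The lowest was LIMK2, a kinase downstream of ROCK that phosphorylates cofilin, at -0.25 (limma adjusted p = 0.0772), with -0.18 on its other probe. The highest was RHOC, a small GTPase of invasive cells, at 0.02. ROCK2, the second ROCK kinase, was named after its values were seen and had -0.22 on its brightest probe (limma adjusted p = 0.104) and -0.04 on the other. Of the 9 genes of this list with several tested probes, 3 had probes of opposite sign, among them RHOA, also a small GTPase and named after its values were seen, at -0.18 on its brightest probe and 0.18 on the other.

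The remaining lists held no call. Of the genes of tenascins, their receptors and matrix partners, 6 of 11 were tested, from ITGA9, a tenascin-C receptor subunit, at -0.34 (limma adjusted p = 0.0690) to FN1, fibronectin, at 0.10. Of the TGF-beta receptors and mediators 10 of 13 were tested and all 10 were negative, from SMAD2 at -0.43 (limma adjusted p = 0.145) to SMAD3, its fellow receptor-activated SMAD, at -0.00. All 4 genes of the TAM list were tested, from the ligand GAS6 at -0.22 to the receptor TYRO3 at 0.11. All 15 genes of the DKK and WNT list were tested, with 10 negative and 5 positive. They ran from DKKL1, a DKK-like secreted protein, at -0.30 (limma adjusted p = 0.0680) to DKK3, a divergent relative of DKK1, at 0.52 (limma adjusted p = 0.400).

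The smaller lists likewise held no call. SOX11, the only tested gene of the 2 other SOXC factors, was at -0.02. SP2 was at -0.03 and SP4 at 0.18 as the lowest and highest of 3 other SP factors. Of the PTPRN2 relatives and vesicle partners 2 of 5 were tested, SNTB2, a syntrophin that anchors secretory granules, at 0.04 and SCG2, a granin of dense-core vesicles, at 0.19.

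**Figure D4:**
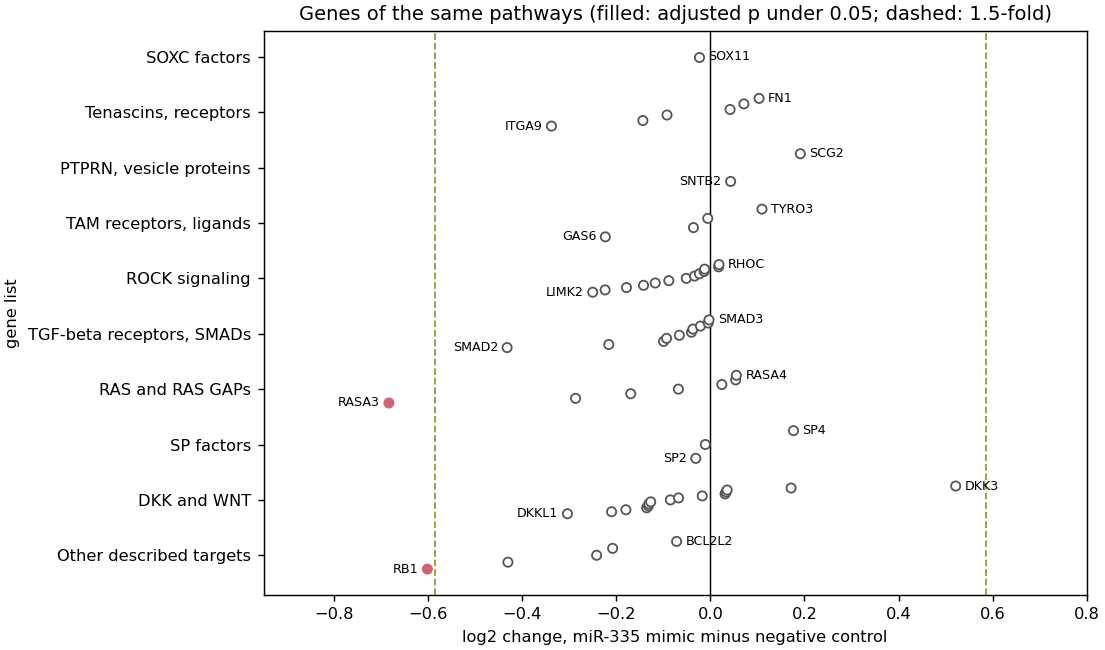
Log2 change (mimic minus negative control, horizontal axis) of the 66 tested genes, 1 point per gene (brightest probe), by list (vertical axis); filled points passed a limma adjusted p of 0.05, dashed lines mark 1.5-fold, and the lowest and highest gene of each list are named. Only RASA3 (-0.68) and RB1 (-0.60) are filled, and both lie beyond the lower dashed line.

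The direction and size of the members' changes were compared across other ways of processing the same arrays. SOX4 and both ROCK1 probes were negative, and TNC positive, under every scaling and background correction that was run. Omission of 1 array was also run, but it could not turn their sign, since their groups did not overlap. MERTK was negative with spike-in scaling and positive under the others. RASA1, which lay at 0, changed sign under 4 settings, omissions of an array among them. With spike-in scaling 5 of the 8 probes were called, all lower, against 47.4% of all tested probes, and none of the 5 was over 1.5-fold lower. With an intensity trend in limma's variance the call was reached by SOX4 (adjusted p = 0.0232), the brighter ROCK1 probe (adjusted p = 0.00855) and TNC (adjusted p = 0.0217), the last of these higher, while 15.2% of all tested probes were called. With normexp background correction the brighter ROCK1 probe alone was called (limma adjusted p = 0.0153), against 7.62% of all tested probes.

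**Figure D5:**
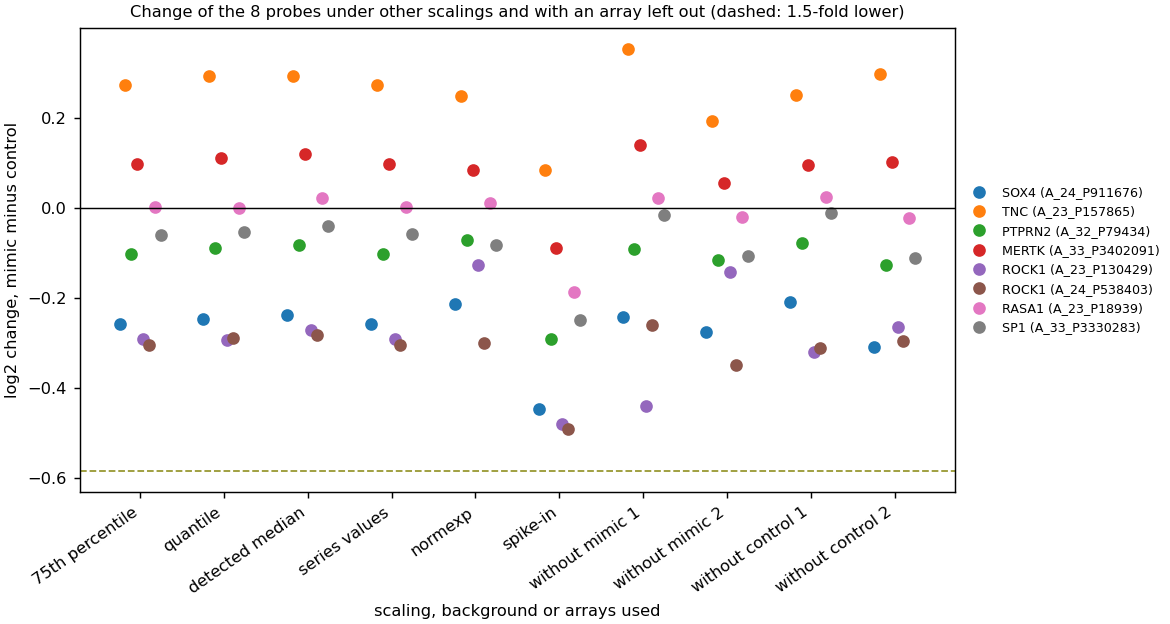
Log2 change (mimic minus negative control, vertical axis) of each of the 8 tested probes (colors) with the 75th percentile scaling, 5 other scalings, background corrections or sources of values, and with each array left out (horizontal axis); the dashed line marks a 1.5-fold decrease. No point reaches that line, and spike-in scaling lowers all 8 probes together, with TNC still above 0.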

How the data were processed

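The authors deposited 1 scanner file per array (Agilent Feature Extraction 10.7.3.1, design on hg19) with spot intensity values. These processed intensities were already background-subtracted and spatially detrended, with no normalization between arrays. The series value table, which the authors deposited with the same intensity rounded, served as an alternative; 0 of its columns matched no sample, and the largest relative deviation was 0.00497. The study analyzed the arrays in GeneSpring GX.

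Control spots and outlier spots were left out, and log2 intensities were centred on the 75th percentile of each array. A probe entered the test if it was well above background on every array of either group and had a value on all 4, which left 20328. The comparison used lmFit and eBayes of limma 3.58.1 (R 4.3.3), Benjamini-Hochberg adjusted over all tested probes with a threshold of 0.05. The fit was tested on simulated data. The number of arrays, 2 per group, limits the precision.

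The 9 genes, the lists and the markers were chosen with earlier results of these data known. Named genes were all members, list genes that passed the adjusted threshold, and the lowest and highest of each list. Gene names and hg19 positions are those of the array files; 9 of 9 symbols were found in RefSeq (GRCh38.p14). Whether a probe lies in an exon or untranslated region was not analysed here. Some genes of the lists are not reported here by name. Where a probe was at background on all 4 arrays, no fold is given. For LRG1, DKK1 and the dimmer PTPRN2 probe the scanner software had put a surrogate value on 3 or 4 arrays.

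Alternatives were quantile, detected-median and spike-in scaling, normexp with an offset of 50, the series table, other filters on dim probes, trended and robust eBayes, the replicate number as a block, the methods' t-test, and leaving out each array, where the lone array of a group is assumed to vary like the other group. Figures were drawn with matplotlib 3.10.9.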

Additional observations from a re-analysis of the deposited data

How the results depend on the processing

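Of the 8 tested member probes, 0 were called in limma, and the count was also 0 with quantile or detected-median scaling, the series table, the filter on all 4 arrays and robust eBayes. It was 0 too with no filter, the replicate block, the methods' t-test after adjustment and without any 1 array (0 to 0), but those settings called 0 probes on the whole array (8 without mimic replicate 2), so that they say nothing about the members. It was 5 with spike-in scaling, 3 with a trend, 1 with normexp and 2 with the methods' t-test unadjusted, where 47.4%, 15.2%, 7.62% and 20.2% of all tested probes were called. Spike-in scaling called SOX4 (-0.45), PTPRN2 (-0.29), RASA1 (-0.19), SP1 (-0.25) and the brighter ROCK1 probe (-0.49), with limma adjusted p between 0.0207 and 0.0376. The count over 1.5-fold lower was 0 under every setting run and 0 over 2-fold, and 1 member probe held the seed match with 7 bases and with 6.

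The median change of -0.08 was -0.27 with spike-in scaling and 0.016 over all 12 probes with no filter, and between -0.12 and -0.05 without 1 array. RASA1 changed sign with quantile normalization (-0.00076), spike-in scaling (-0.19), without mimic replicate 2 (-0.020) and without control replicate 2 (-0.023, the lowest without 1 array; the highest was 0.024), and MERTK with spike-in scaling (-0.090). Without 1 array the change of SOX4 was between -0.31 and -0.21, that of TNC between 0.19 and 0.35 (0.085 with spike-in scaling) and that of the brighter ROCK1 probe between -0.35 and -0.26.

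Over the alternatives the adjusted p ranged from 0.0207 to 0.677 for SOX4, from 0.0217 to 0.736 for TNC and from 0.00855 to 0.593 for the brighter ROCK1 probe. The 2 calls among the 66 list genes were 42 with spike-in scaling, 14 with a trend, 6 with normexp and 13 with the methods' t-test unadjusted, beside the same shares of all probes. They were 0 with no filter, with the replicate block, with the methods' t-test after adjustment and without any 1 array (0 to 0), the settings that called 0 or 8 probes in all, while RASA3 kept a change between -0.73 and -0.64 and RB1 between -0.62 and -0.59 without 1 array. The cause of these differences was not tested. The replicate numbers were not taken as pairs (correlation of replicate differences 0.03), and with them as a replicate block 0 of all 20328 probes, and so 0 member probes, were called. A block by slide or scan was not run, since there was 1 of each.

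With 2 arrays per group of 1 cell line, small changes cannot be told from the spread, and 4 probes at background allow no statement on LRG1, DKK1 and the second probes of PTPRN2 and MERTK.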
